A study of Mus musculus with 8 samples.

Results

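The 9 genes described here mark microglia, the resident macrophages of the brain, and were followed in bulk RNA-seq of mouse hippocampus. The genes were Olfml3, Trem2, Fcrls, P2ry12, Cx3cr1, Csf1r, Tmem119, C1qa and Aif1, chosen by symbol as 9 of the 56575 features of the deposited table, and each symbol matched 1 row. The 2 genotypes of C57BL/6 mice aged 8 weeks were compared, with 4 libraries labelled WT and 4 labelled Slm2KO. SLM2 is an RNA-binding protein of the STAR family that controls splicing in neurons, and its gene is Khdrbs3. The study asked what its loss does to overall expression and to splicing in the hippocampus. No other allele, agent or treatment is named in the labels, which also do not say how the knockout was made, what sex the mice were, or whether each library came from a separate animal. P-values therefore measure the spread between these samples, which may be technical.

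Microglia arise from yolk-sac progenitors, enter the brain early in development and then maintain themselves. Their survival depends on the receptor CSF1R and its ligands CSF1 and IL-34, and TGF-beta signals keep them in the resting, or homeostatic, state. In that state they carry P2RY12, CX3CR1 and TMEM119, survey the tissue with motile processes, and help to prune synapses, in part through complement. On activation they lower several of these genes and raise others, among them Apoe, Clec7a and Itgax. Csf1r, Cx3cr1, Aif1 and C1qa are also expressed by the macrophages of vessels, meninges and choroid plexus, whereas P2ry12 and Tmem119 are more restricted to microglia.

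The values are normalised read counts, which were scaled between libraries by the authors and are not divided by gene length. Khdrbs3 itself was 20662, 23542, 19457 and 24544 in WT libraries 1 to 4 and 29676, 33366, 30022 and 25932 in those labelled Slm2KO. Each library labelled Slm2KO was above each WT library, so the gene-level value does not show the deletion, and genotypes are given below as labelled. The table holds 1 value per gene, and no source used here says which stretch of the gene was removed. Depth was 104020058 to 125985224 reads per library. Camk2a, a kinase of excitatory neurons, averaged 217753 in WT and 207567 in Slm2KO libraries. The libraries differed widely in Ttr, the transthyretin gene of the choroid plexus, whose lowest value (219052) was in WT 2 and whose highest (2262369) was in Slm2KO 4, 10.3-fold apart. Summed values of Y-linked genes were 17979 to 19517 in 3 libraries (WT 4, Slm2KO 3 and Slm2KO 4) and at most 3.62 in the other 5.

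To compare levels between the genes, each value was divided by the exon length of the principal GENCODE transcript within the coordinates of the table. C1qa, the A chain of the complement component C1q, was highest at 4666 ± 293 reads per kb (SD, n = 8). P2ry12, the purinergic receptor that draws microglial processes to ADP, followed at 3291 ± 220 reads per kb. Csf1r, the receptor tyrosine kinase for CSF1 and IL-34, stood at 2607 ± 258 reads per kb. These levels kept the same order in all 8 libraries, and their ranges did not overlap with one another or with those of the other genes. Fcrls, an Fc receptor-like scavenger molecule of rodent microglia, was at 1443 ± 99.2 reads per kb and Tmem119, a membrane protein of resting microglia, at 1257 ± 91.3 reads per kb. Cx3cr1, the receptor for the neuronal chemokine fractalkine, stood at 1170 ± 131 reads per kb. Each of the neighbouring pairs from Fcrls to Tmem119, Cx3cr1 and on to Olfml3 overlapped in range, although Cx3cr1 exceeded Olfml3 in 8 of 8 libraries. Lowest were Olfml3, a secreted olfactomedin-domain glycoprotein, at 918 ± 105 reads per kb, Trem2, the lipid-sensing receptor that signals through TYROBP, at 875 ± 83.4 reads per kb, and Aif1, which encodes the actin-bundling protein IBA1, at 788 ± 50.4 reads per kb. Olfml3 exceeded Trem2 in 5 of 8 libraries and Trem2 exceeded Aif1 in 7 of 8. The ranges of both pairs overlapped, and the order of these 3 levels was not tested. With all annotated exons as the length, an alternative chosen after seeing the data, the first 7 places stayed as they were, but the level of Trem2 fell to 192 and that of Olfml3 to 511 reads per kb, and Trem2 became the lowest.

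**Figure D1:**
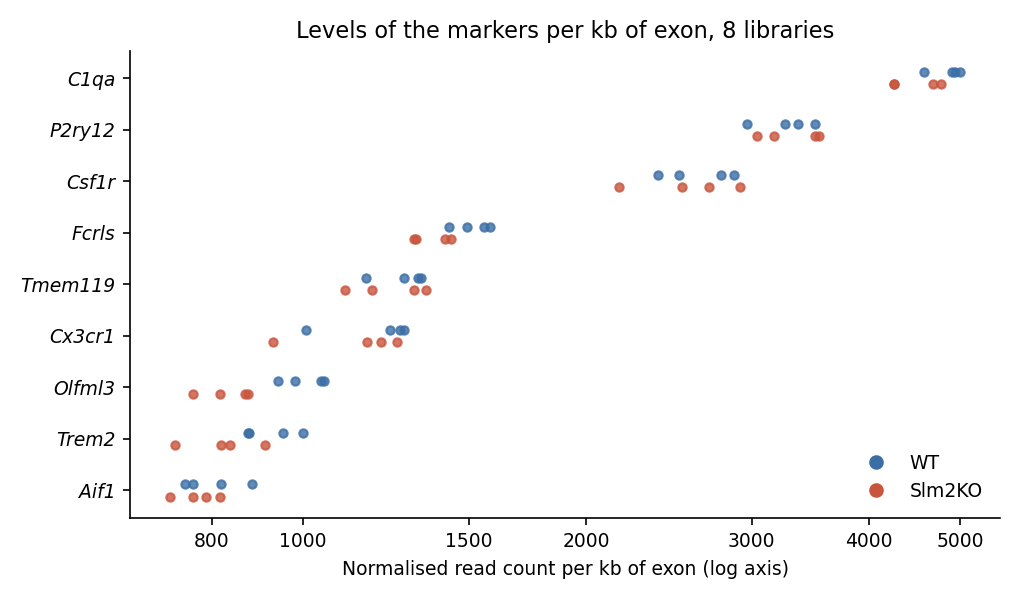
Normalised read count per kb of exon (log axis) of the 9 microglia markers, with 1 point per library, WT in blue and Slm2KO in red. C1qa, P2ry12 and Csf1r stand apart at the top, with means of 4666, 3291 and 2607 reads per kb, and the lower 6 genes overlap with their neighbours.

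Between the genotypes, none of the 9 genes passed the test. Of the 9, 8 were lower and 1 (P2ry12) was higher in the libraries labelled Slm2KO, with log2 differences from -0.28 to 0.02 and a median of -0.07, where the median over all 25667 features tested was -0.01 and 53.9% of them were below 0. Olfml3 stood out with the largest difference and was the only marker whose groups did not overlap. Trem2, Fcrls and C1qa followed at -0.17, -0.14 and -0.11, whereas Csf1r, Tmem119, Aif1, Cx3cr1 and P2ry12 lay between -0.07 and 0.02. In limma, called genes were 0 of 9, against 0.0039% of all features (1 feature). DESeq2 on recovered reads also called 0 of 9, against 0.0469% of the 19195 features to which it gave an adjusted p. With edgeR on recovered reads, called genes were 0 of 9, against 0.0039% of all features. In limma an unadjusted p under 0.05 was found for 2 of 9 (Olfml3 and Fcrls), both lower in Slm2KO, against 3.52% of all features (1.82% lower and 1.7% higher). For all 9 genes the 95% interval excluded a 1.5-fold change in either direction, as it did for 65.7% of all features, and for 7 of 9 it excluded a 1.25-fold change (42.9% of all features). In bulk tissue, fewer microglia and less of these transcripts per cell cannot be told apart.

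**Figure D2:**
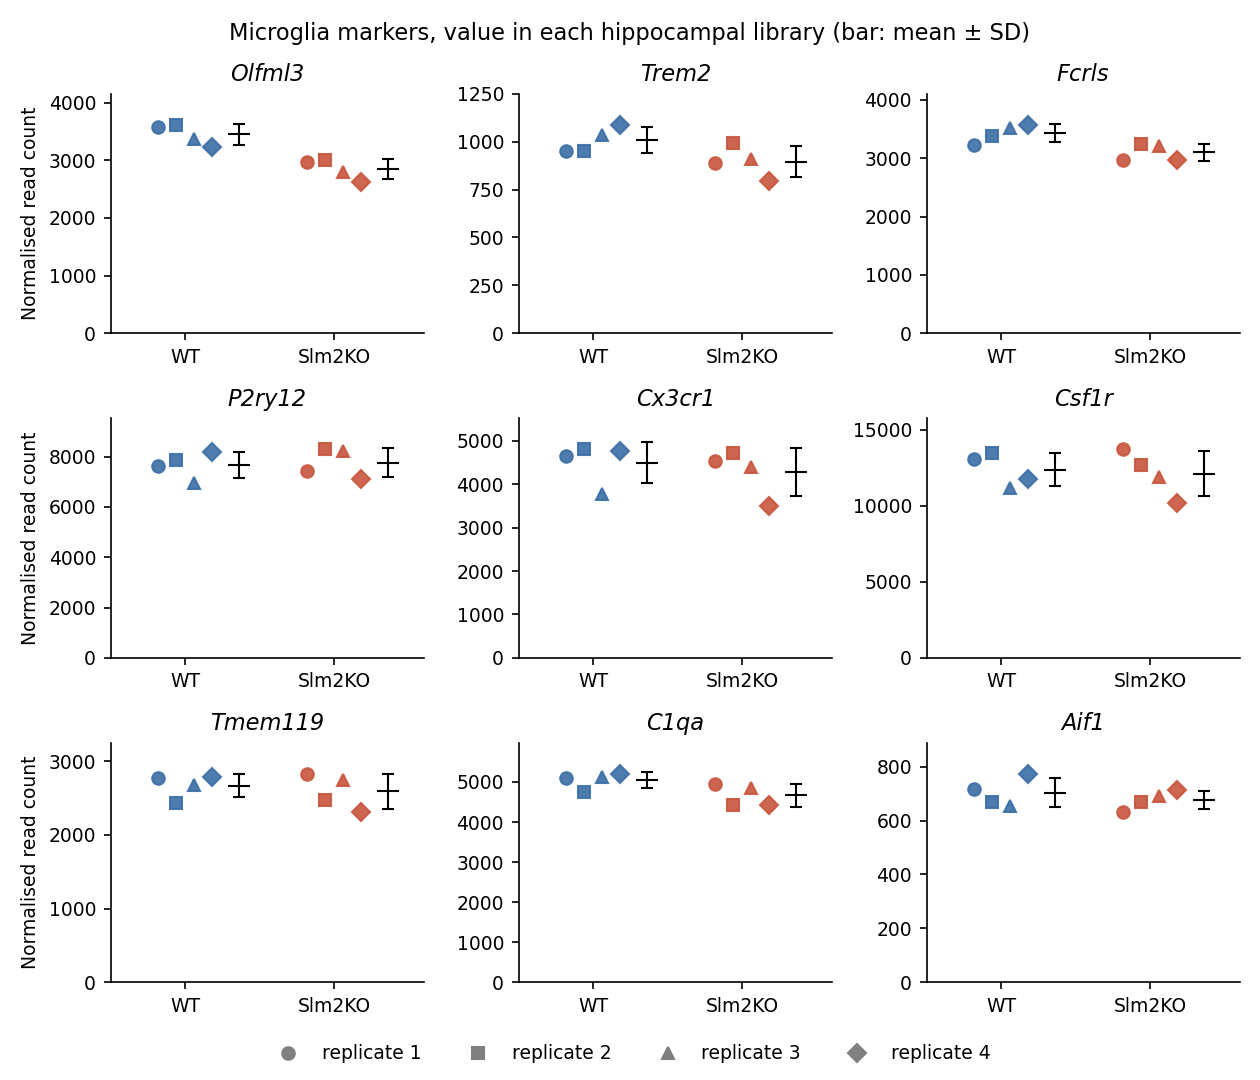
Normalised read count of each microglia marker in the 8 hippocampal libraries, with the mean and SD of each group as a bar and the replicate number given by the symbol. Olfml3 is the only gene whose 4 Slm2KO points (2623 to 3000) all lie under its 4 WT points (3228 to 3616).

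Olfml3 encodes a secreted glycoprotein that microglia release (feature GSMG0025833, chr3:103733698-103738001, mm10, minus strand). Its normalised read count in WT libraries 1 to 4 was 3584, 3616, 3363 and 3228, and in Slm2KO libraries 1 to 4 it was 2976, 3000, 2801 and 2623. All 4 Slm2KO libraries lay below all 4 WT libraries, a separation found in 2.5% of all features (1.17% lower and 1.33% higher in Slm2KO). The group means were 3448 ± 185 and 2850 ± 175 (SD, n = 4 each), a fold of 0.826 with a 95% interval of 0.748 to 0.912. The log2 difference of -0.28 (SE 0.064) did not pass adjustment (limma, unadjusted p = 0.00158, rank 20 of 25667 features, adjusted p = 1.00; two-sided exact permutation p = 0.0286, the smallest that 70 assignments can give). The sample numbers in the labels fall into a lower series (replicates 1 and 2 of each genotype) and a higher series (replicates 3 and 4). The libraries rich in reads of Y-linked genes (WT 4, Slm2KO 3 and Slm2KO 4) are all in the higher series. WT 3 is also in that series and had none, so these reads are not balanced between the genotypes there. In differences within the higher series, genotype and Y-linked reads cannot be fully told apart. The log2 difference of Olfml3 was -0.27 in the lower and -0.28 in the higher series. It ran from -0.31 to -0.24 when each library was left out in turn and was -0.21 without the libraries of lowest and highest Ttr. The lowest adjusted p among the alternatives was 0.108, in DESeq2 on recovered reads, and the others ran from 0.770 to 1.00. Markers of endothelial and mural cells were also lower in Slm2KO libraries in 11 of 12 cases (median log2 difference -0.20; -0.08 without Slm2KO 4, -0.12 without WT 1 and -0.32 without WT 3), with summed values of 44480 to 58422 in WT and 41251 to 52365 in Slm2KO libraries and no marker at 0. Their part in the Olfml3 difference was not tested.

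The 300 bases around the transcription start of Olfml3, Trem2 and Fcrls, the 3 markers with the lowest folds, are shown because their promoters can be set beside the values. The sequences are those of RefSeq, build GRCm38.p6 (the mm10 assembly), from 250 bases before to 50 bases after the start, on the gene's strand. Capitals mark only GAGGAA or its reverse complement TTCCTC, 1 form of the sites that the lineage factor PU.1 and other ETS proteins read. Other forms are not marked. Olfml3 lies at chr3:103737952-103738251 (minus strand), Trem2 at chr17:48346151-48346450 (plus strand) and Fcrls at chr3:87263475-87263774 (minus strand).
Olfml3: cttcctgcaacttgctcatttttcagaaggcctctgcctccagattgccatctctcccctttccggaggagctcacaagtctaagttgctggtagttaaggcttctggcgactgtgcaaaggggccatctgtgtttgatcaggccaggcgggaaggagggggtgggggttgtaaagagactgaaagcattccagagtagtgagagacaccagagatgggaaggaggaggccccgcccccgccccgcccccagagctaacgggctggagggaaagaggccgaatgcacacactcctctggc
Trem2: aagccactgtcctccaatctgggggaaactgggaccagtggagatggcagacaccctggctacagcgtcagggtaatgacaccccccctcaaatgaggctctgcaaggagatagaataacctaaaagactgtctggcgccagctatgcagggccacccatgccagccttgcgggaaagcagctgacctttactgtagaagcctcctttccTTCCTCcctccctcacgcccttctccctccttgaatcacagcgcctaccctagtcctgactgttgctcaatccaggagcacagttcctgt
Fcrls: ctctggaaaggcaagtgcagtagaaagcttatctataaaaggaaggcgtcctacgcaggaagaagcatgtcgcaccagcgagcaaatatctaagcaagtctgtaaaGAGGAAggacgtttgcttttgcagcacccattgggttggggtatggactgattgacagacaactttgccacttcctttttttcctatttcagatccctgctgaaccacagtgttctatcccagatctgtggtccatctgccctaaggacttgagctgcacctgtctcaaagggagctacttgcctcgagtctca

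A promoter entry was found for 6 of the 9 markers (P2ry12, Fcrls, Olfml3, Cx3cr1, Aif1 and Trem2). GAGGAA, searched on both strands, occurred in those of Trem2, Fcrls and Aif1, 3 of 6, against 28.3% of all 32851 promoters of this length. The match began 40 bases before the start in Trem2 and 144 bases before it in Fcrls. The longer form GAGGAAGT, which contains GAGGAA, occurred in 0 of 6, against 3.20% of all promoters. Neither was found in this window of Olfml3. The shorter GGAA, which GAGGAA contains, was not searched on its own, so other forms of these sites may be present there.

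Trem2 codes for a receptor of lipids and lipoproteins that drives phagocytosis and the response to tissue damage (feature GSMG0016770, chr17:48346395-48354147, mm10, plus strand). Its values were 953, 950, 1037 and 1088 in WT libraries 1 to 4 and 890, 991, 909 and 795 in Slm2KO libraries 1 to 4. In all, 3 Slm2KO libraries lay below every WT library, and Slm2KO 2 lay among them. The means of 1007 ± 67.4 and 896 ± 80.4 (SD, n = 4 each) gave a fold of 0.889 (95% interval 0.779 to 1.01). On the log2 scale the groups were -0.17 apart (SE 0.085; adjusted p = 1.00 in limma; p = 0.0857 by exact permutation), and this value differed between the number series, at -0.02 in the lower and -0.32 in the higher one. Without Slm2KO 4 it was -0.11.

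Fcrls, a scavenger-receptor-like member of the Fc receptor family, followed the same libraries (feature GSMG0025604, chr3:87250763-87263593, mm10, minus strand). Its values were 3230, 3382, 3524 and 3575 in WT and 2968, 3250, 3204 and 2979 in Slm2KO libraries 1 to 4. Only Slm2KO 2 reached the WT range, just above WT 1. Means were 3428 ± 155 and 3100 ± 148 (SD, n = 4 each), a fold of 0.904 (95% interval 0.827 to 0.989) and a log2 difference of -0.14 (SE 0.058; limma unadjusted p = 0.0309, adjusted p = 1.00; exact permutation p = 0.0571). The log2 difference was -0.09 in the lower and -0.20 in the higher number series.

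C1qa encodes a chain of C1q, which starts the classical complement cascade and tags synapses for removal (feature GSMG0028528, chr4:136895916-136898844, mm10, minus strand). Its values were 5097, 4751, 5129 and 5197 in WT and 4953, 4420, 4859 and 4417 in Slm2KO libraries 1 to 4, so that Slm2KO 2 and 4 fell below every WT library. Means were 5044 ± 199 and 4662 ± 284 (SD, n = 4 each), with a log2 difference of -0.11 (SE 0.059; limma adjusted p = 1.00; exact permutation p = 0.0857). In the number series the log2 difference was -0.07 and -0.16. The other chains behaved alike in size: C1qb had a log2 difference of -0.10 and C1qc of -0.14, and neither passed.

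Csf1r, on which microglial survival depends, had the highest undivided counts of the 9 genes (feature GSMG0018463, chr18:61105571-61132149, mm10, plus strand). Its values were 13065, 13497, 11197 and 11786 in WT and 13715, 12708, 11893 and 10190 in Slm2KO libraries 1 to 4. The highest and the lowest library both carried the Slm2KO label, and the groups overlapped. Means of 12386 ± 1075 and 12127 ± 1491 (SD, n = 4 each) gave a log2 difference of -0.03 (SE 0.094; limma adjusted p = 1.00; exact permutation p = 0.771; 95% interval 0.844- to 1.13-fold), at -0.01 in the lower and -0.06 in the higher number series. The kit does not mark strand, and 873 exon bases of Csf1r are shared with Hmgxb3 on the opposite strand, so part of its reads cannot be assigned with certainty.

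Cx3cr1, the fractalkine receptor, had the highest coefficient of variation within genotypes of the 9 (feature GSMG0041447, chr9:120048683-120068297, mm10, minus strand). Its values were 4647, 4802, 3783 and 4764 in WT and 4539, 4721, 4388 and 3488 in Slm2KO libraries 1 to 4. WT 3 and Slm2KO 4 stood low, and the other 6 libraries lay between 4388 and 4802. Means were 4499 ± 482 and 4284 ± 548 (SD, n = 4 each) and the log2 difference -0.07 (SE 0.11; limma adjusted p = 1.00; exact permutation p = 0.486), at -0.03 and -0.12 in the lower and higher number series. Without Slm2KO 4 it turned to 0.02.

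P2ry12, the ADP receptor that closes gaps in the vessel wall and guides processes to injury, was the only marker with a higher mean in Slm2KO libraries (feature GSMG0025456, chr3:59216271-59262832, mm10, minus strand). Its values were 7630, 7878, 6948 and 8202 in WT and 7432, 8289, 8213 and 7124 in Slm2KO libraries 1 to 4, with WT 3 and Slm2KO 4 again lowest. Means of 7664 ± 532 and 7764 ± 576 (SD, n = 4 each) differed by 0.02 on the log2 scale (SE 0.070; limma adjusted p = 1.00; exact permutation p = 0.800; 95% interval 0.909- to 1.13-fold), and by 0.02 in either number series. The sign of this small difference turned when WT 3, Slm2KO 2 or Slm2KO 3 was left out. P2ry12 overlaps Med12l on the opposite strand, with 9 exon bases in common.

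Tmem119 codes for a membrane protein used to tell microglia from other macrophages (feature GSMG0030941, chr5:113793730-113800367, mm10, minus strand). Its values were 2769, 2440, 2676 and 2789 in WT and 2828, 2476, 2743 and 2318 in Slm2KO libraries 1 to 4. The 2 groups interleaved, with the highest value in Slm2KO 1 and the lowest in Slm2KO 4. Means were 2669 ± 160 and 2591 ± 236 (SD, n = 4 each) and the log2 difference -0.04 (SE 0.077; limma adjusted p = 1.00; exact permutation p = 0.657), which was 0.03 in the lower and -0.12 in the higher number series. It was 0.01 without Slm2KO 4.

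Aif1 makes IBA1, the cytoplasmic protein most used to stain microglia (feature GSMG0017459, chr17:35170992-35176002, mm10, minus strand). Its values were 716, 668, 655 and 772 in WT and 631, 668, 690 and 713 in Slm2KO libraries 1 to 4. In all, 3 Slm2KO libraries fell within the WT range, and Slm2KO 1 lay below it. Means of 703 ± 53.3 and 676 ± 34.9 (SD, n = 4 each) gave a log2 difference of -0.06 (SE 0.082; limma adjusted p = 1.00; exact permutation p = 0.429), at -0.09 and -0.02 in the lower and higher number series. Aif1 had the fewest reads, 635 to 807 per library, and the largest counting error of the 9.

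**Figure D3:**
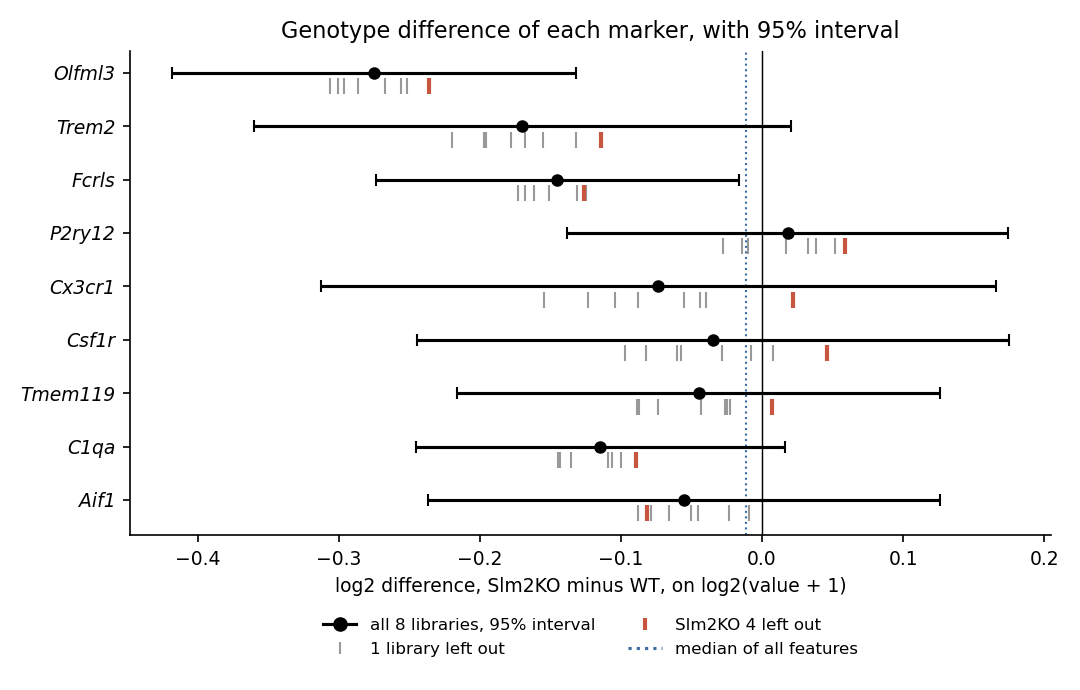
Log2 difference (Slm2KO minus WT) of each marker with its 95% interval over all 8 libraries (black), the values with 1 library left out (grey ticks, red without Slm2KO 4), and the median of all features (-0.01, dotted). Olfml3 stays between -0.31 and -0.24 whichever library is left out, while Cx3cr1, Csf1r and Tmem119 turn positive without Slm2KO 4.

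Within genotypes the coefficient of variation ran from 4.64% for Fcrls and 5.05% for C1qa to 10.6% for Csf1r and 11.7% for Cx3cr1, beside a median of 12.3% over all features tested and of 7.38% over the 11879 features with means from 500 to 15000. Counting alone would give 0.898% to 3.80% for these genes, so the spread between libraries exceeded counting error 1.72-fold for Aif1 and up to 11.8-fold for Csf1r. Slm2KO 4 was the lowest of the 8 libraries for 6 of the 9 genes (Olfml3, Trem2, Cx3cr1, Csf1r, Tmem119 and C1qa). The mean log2 deviation of the 9 genes from their own averages was -0.18 in Slm2KO 4, 0.10 in WT 4 and between -0.01 and 0.06 in the other 6 libraries. Without Slm2KO 4, 5 of the 9 log2 differences were negative and their median was -0.08, while 50.8% of all features were below 0. Slm2KO 4 also had the highest Ttr, the lowest depth, the highest mitochondrial share of reads (12.7%, from 10.7% in WT 2) and the highest share of reads without a gene symbol (18.4%, from 15.4% in WT 2). In it the mean log2 deviation was -0.19 for 10 neuronal markers, -0.38 for 12 endothelial and mural markers and -0.11 for 10 astrocyte markers. It was -0.06 for 22 other microglial genes, for which Slm2KO 2 was the lowest library. For 10 oligodendrocyte markers it was 0.19 and for 10 choroid plexus genes 1.23. The part of these library traits and other cell types in the microglial values was not tested.

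Of the 36 pairs among the 9 genes, 33 had a Pearson correlation above 0 over the 8 libraries, with a median of 0.33 (91.7% above 0). Among all pairs of the 14785 other named genes with a mean of at least 100, the median was 0.064 and 54.4% were above 0, and all of these values share the same libraries and scaling. Of the 36 pairs, 4 exceeded 0.7 (11.1%), near the 8.515% among all pairs. The share above 0 rested largely on few libraries. Without the 2 libraries most extreme for the first gene of each pair, many of the 36 correlations were negative. The same omission was not made for the pairs of all genes, so the shares above 0 do not show that the markers vary together. With these 2 libraries omitted, r fell from 0.496 to -0.506 for Trem2 and Cx3cr1. For P2ry12 and Csf1r it fell from 0.407 to -0.792. Other pairs stayed positive, among them Olfml3 and C1qa (0.564 to 0.557) and Fcrls and C1qa (0.527 to 0.631). Trem2 and Fcrls had the highest r over the 8 libraries (r = 0.900, exact permutation p = 0.00216, adjusted over the 36 pairs 0.0777; rho = 0.905, exact permutation p = 0.00456, adjusted 0.164), and r was 0.843 once WT 4 and Slm2KO 4, the most extreme for Trem2, were omitted. Tmem119 and C1qa gave r = 0.846 (exact permutation p = 0.0112, adjusted 0.135; rho = 0.738, exact permutation p = 0.0458, adjusted 0.680), and r = 0.814 without WT 2 and Slm2KO 4.

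The membrane receptors Cx3cr1 and Csf1r gave r = 0.844 (exact permutation p = 0.00667, adjusted 0.120; rho = 0.571, exact permutation p = 0.151, adjusted 0.680), and P2ry12 and Cx3cr1 r = 0.781 (exact permutation p = 0.0190, adjusted 0.171; rho = 0.595, exact permutation p = 0.132, adjusted 0.680). Both relations rested on WT 3 and Slm2KO 4, without which r fell to 0.199 and 0.109. Those 2 libraries had the highest Ttr values, 1791307 and 2262369, and were the 2 lowest for Cx3cr1, Csf1r and P2ry12. WT 1, the third in Ttr at 1519675, had log2 deviations of 0.09, 0.10 and -0.01 for Cx3cr1, Csf1r and P2ry12. The part of choroid plexus in these values was not tested. No pair passed adjustment. These r values include the difference between the genotype means. With the group means removed the order changed: Tmem119 and C1qa came first (r = 0.957), then Olfml3 and Csf1r (0.906, from 0.533 over all libraries), Cx3cr1 and Csf1r (0.843), P2ry12 and Cx3cr1 (0.830), and Trem2 and Fcrls (0.826). Each number series holds 4 libraries, too few for a correlation within it.

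**Figure D4:**
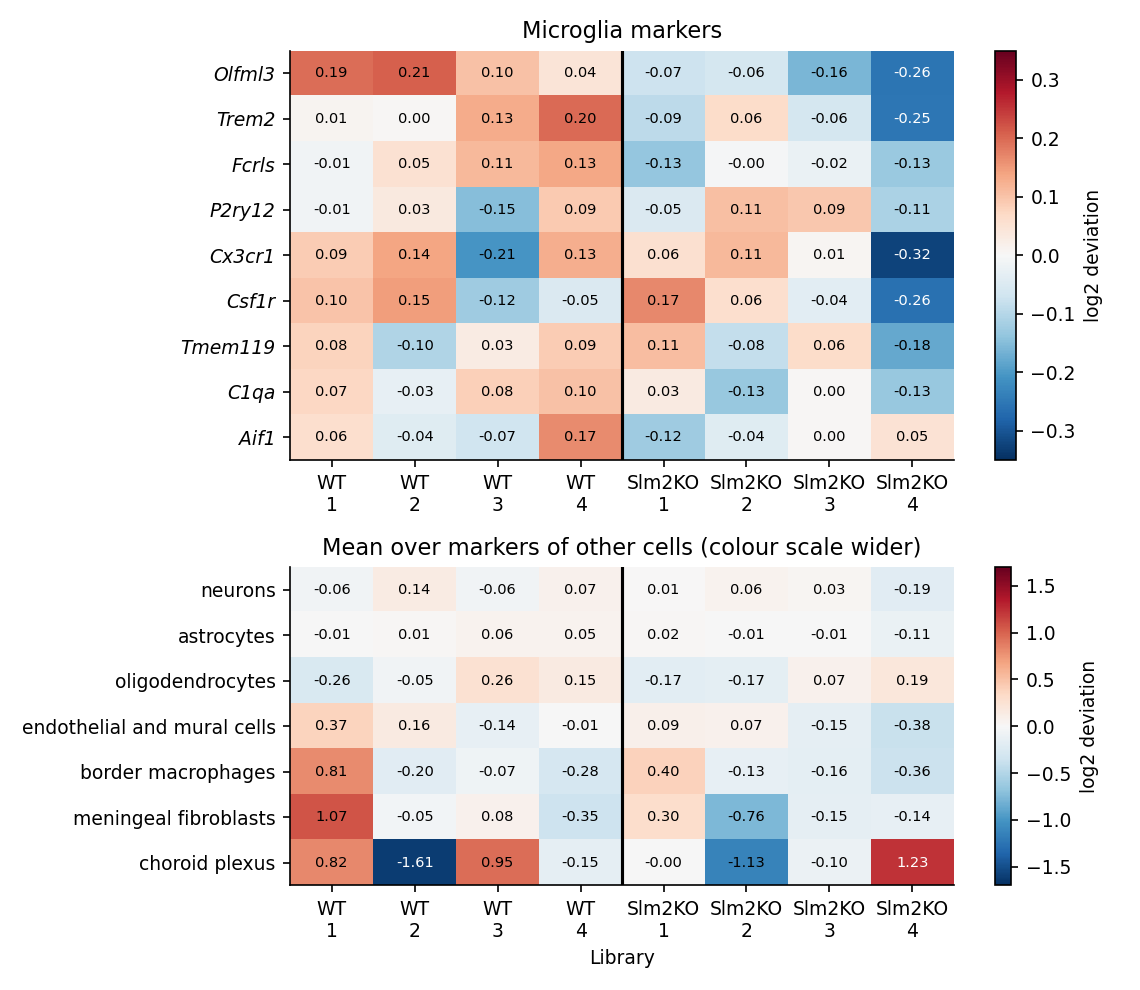
Log2 deviation of each microglia marker from its mean over the 8 libraries (upper panel), and the mean deviation over markers of other cell types (lower panel, with a wider colour scale); the line divides WT from Slm2KO. Slm2KO 4 is the lowest library for 6 of the 9 markers, WT 3 and Slm2KO 4 are low for Cx3cr1 (-0.21 and -0.32), and the choroid plexus row spans -1.61 to 1.23.

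Beyond the 9 markers, 183 further genes of 16 lists were tested, and 0 passed in limma, with 4 at an unadjusted p under 0.05 (over all features, 0.0039% and 3.52%). The lists share some genes. Each library was also left out in turn, and the medians that this moved by over 1.5-fold or across 0 are given by their extremes, with the library omitted. Of 22 other microglial genes, 15 were lower and 7 higher (median log2 difference -0.06; -0.03 without WT 4 and -0.02 without Slm2KO 4), among them Itgb5 at -0.14 and the inhibitory lectin Cd33 at -0.18. Siglech and Gpr34, also resting-state genes, were at 0.08 each and Sall1, the transcription factor that maintains microglial identity, at -0.07. Complement genes and receptors were lower in 11 of 11 (median -0.14), with C1qc and C1qb as given above. They were lower in 9 of 11 without Slm2KO 4 (median -0.11) and in 10 of 11 without WT 1 (median -0.07).

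The partners of TREM2 were lower in 9 of 10 (median -0.08; -0.03 without Slm2KO 2 and -0.13 without Slm2KO 3). Plcg2, the phospholipase downstream of the receptor, was at 1212 ± 85.0 and 1032 ± 148 (SD, n = 4 each; log2 difference -0.24, limma adjusted p = 1.00; exact permutation p = 0.0571), and Tyrobp, its signalling adaptor, was at -0.11. Ligands of CSF1R and lineage transcription factors went 7 lower and 5 higher (median -0.03; -0.09 without Slm2KO 2 and 0.03 without Slm2KO 4, and also above 0 without WT 2), with Csf1 at -0.13, Il34 at -0.04, Mef2c at -0.17, Spi1, which encodes PU.1, at -0.12 and Irf8 at -0.10. Mef2c and Csf1 are also made by neurons and other cells. Fractalkine and purine signalling genes were lower in 11 of 12 (median -0.04; -0.07 without Slm2KO 1 and -0.02 without WT 4), led by P2ry13 at -0.15 and P2rx4 at -0.10, with Cx3cl1, the neuronal ligand of Cx3cr1, at -0.05. Without Slm2KO 4, 5 of 12 genes of the CSF1R list and 7 of 12 of the fractalkine and purine list were lower. TGF-beta genes were lower in 7 of 10 (median -0.10; -0.05 without WT 3 and -0.02 without Slm2KO 4), with Tgfbr2 at -0.22 and Smad3 at -0.18.

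Genes of activated microglia were lower in 15 of 18 (median -0.12), in 12 of 18 without Slm2KO 2 (median -0.07) and in 17 of 18 without WT 2 (median -0.19). Clec7a, the beta-glucan receptor dectin-1, was 104, 118, 141 and 123 in WT and 72.1, 61.0, 104 and 103 in Slm2KO libraries 1 to 4, and the groups did not overlap, with Slm2KO 3 at 103.6 and WT 1 at 104.2 (log2 difference -0.54, SE 0.20; limma adjusted p = 1.00; exact permutation p = 0.0286). Such a separation was found for 1 of the 18 genes, beside 2.5% of all features (1.17% lower in Slm2KO). Clec7a and Itgax are named because they had the smallest p-values of this list. Itgax, the integrin chain CD11c, was at 71.7 ± 8.53 and 49.6 ± 12.6 (SD, n = 4 each; log2 difference -0.55; limma adjusted p = 1.00; exact permutation p = 0.0571). Apoe, which astrocytes make in large amounts, was at -0.08. Inflammatory cytokines and sensors were split, 8 lower and 6 higher of 14 (median -0.03; -0.14 without Slm2KO 1, 0.01 without WT 1 and 0.03 without Slm2KO 2), with the superoxide-producing oxidase gene Cybb at -0.45 and the RNA sensor Tlr7 at 0.21. Tnf and Il6 had means under 10 and were not tested.

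Markers of cells that could add to the microglial signal were set beside these values. Of 11 border macrophage markers, 9 were lower in Slm2KO libraries (median log2 difference -0.20), among them Stab1 at -0.23 and Cd163 at -0.20. Their summed values ran from 2703 to 5267 in WT and from 2709 to 3976 in Slm2KO libraries, and WT 1 was highest, with a mean log2 deviation of 0.81. The median was -0.34 without Slm2KO 1 and -0.06 without Slm2KO 4. Without WT 1, 3 of the 11 were lower and the median was 0.09, whereas of the 9 microglia markers 8 were lower, with a median of -0.06. Meningeal fibroblast genes were lower in 7 of 8 (median -0.44; -0.10 without WT 1 and -0.23 without Slm2KO 2), with Slc6a13 at -0.71 and Col1a1 at -0.43. Their sums were 9223 to 24575 in WT and 6780 to 16060 in Slm2KO libraries. Blood-cell genes were higher in 9 of 14 (median 0.21; -0.11 without Slm2KO 2, 0.03 without WT 4 and 0.42 without Slm2KO 3), with sums of 15726 to 23344 and 16160 to 39772. Ngp, a neutrophil granule gene with values near the mean of 10 needed for testing, was at 1.71 (SE 0.83; exact permutation p = 0.229). Its means were 7.50 ± 7.65 in WT and 16.5 ± 7.39 in Slm2KO libraries (SD, n = 4 each), and the groups overlapped. The 10 choroid plexus genes went 5 lower and 5 higher (median 0.01; Prlr at -0.18, Clic6 at 0.10). That even split rested on single libraries: 10 of 10 were lower without WT 2 (median -0.53) or without Slm2KO 4 (-0.38), and 0 of 10 without WT 1 (0.29), WT 3 (0.32) or Slm2KO 2 (0.38). Their values had sums of 342991 to 2449549 and 522186 to 3105468. Of these other-cell lists no marker, whether or not it reached the mean needed for testing, was at 0 in all 8 libraries. Their part in the microglial values was not tested.

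Among the major cell types, neuronal markers were lower in 9 of 10 (median -0.05; 3 of 10 and 0.02 without Slm2KO 4, -0.01 without WT 2 and -0.09 without Slm2KO 2), led by Nefm at -0.10 and Camk2a at -0.08. Astrocyte markers were lower in 8 of 10 (median -0.06; -0.03 without WT 4 or Slm2KO 4 and -0.09 without Slm2KO 1), with the water channel gene Aqp4 at -0.20 and Gfap at -0.12. Oligodendrocyte markers were lower in 8 of 10 (median -0.03), in 10 of 10 without WT 1 (-0.13) or Slm2KO 4 (-0.11) and in 4 of 10 without WT 3 (0.04), WT 4 (0.02) or Slm2KO 1 (0.02), with Mag at -0.14 and Mbp at -0.09.

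By likeness of pattern, the mean log2 deviation of the 9 markers was compared with 14785 other named genes with a mean of at least 100. The 10 highest Pearson correlations over the 8 libraries, 0.955 to 0.974, included those of Phf19, Peli3, Zscan25, Cacng7, Alg1, Rnf180, Eltd1, Lmf1 and C1ql1. None of these 9 named genes is on the lists of microglial genes used here. For single markers the closest gene was C1qb for C1qa (r = 0.969), the only case in which the closest gene belonged to the same complex. The others were Acvrl1 for Olfml3 (0.984), Rftn2 for Trem2 (0.973), Dixdc1 for Fcrls (0.957), B230209E15Rik for P2ry12 (0.971), Ngef for Cx3cr1 (0.992), Nol6 for Csf1r (0.991), Hkdc1 for Tmem119 (0.962) and Plekhg1 for Aif1 (0.934). Acvrl1, a receptor kinase of endothelial cells, had a log2 difference of -0.38. These are the highest of many correlations over 8 points and are given as a description.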

How the data were processed

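Hippocampal RNA was sequenced from 8 samples, 4 labelled WT and 4 Slm2KO, per the labels' protocols with a TruSeq RNA kit on total RNA. The deposited signal values are reads per gene divided by 1 size factor per library; DESeq, FastQC, Picard and SAMtools are named per the submitters' processing notes, without versions. The notes list hg19, whereas the file header states mm10, used here; no source used here gives the aligner or counting tool. Values were whole multiples of 1 step within 0.001 of a read (100% in each library; for WT 1 the factor, 0.999, is too near 1 for this to be checked apart), which gave back whole reads. Libraries of a genotype differed by more than counting error (chi-square over its degrees of freedom, 16.8 to 130).

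The main test was limma 3.58.1 (R 4.3.3) on log2(value + 1) with a trended prior, for 25667 features with a mean of at least 10, Benjamini-Hochberg adjusted over all, threshold 0.05; fold changes are on that scale. Alternatives were other pseudocounts, filters and scalings, edgeR 4.0.16 and DESeq2 1.42.0 on the recovered reads, covariates, the replicate block and libraries left out. The fit was tested on simulated data with 50 planted changes per fold. It called 2% of those at 1.25-fold, 48% at 1.5-fold and 82% at 2-fold. Of 25467 unchanged features it called 5. The simulated spread was a set value, not that of the markers. Named genes were the 9 markers, per further list any called gene or else the 2 smallest p-values, and the genes most alike in pattern; other list members are examples chosen after their values were seen. The markers and lists were chosen with earlier results of these data known. Exon lengths and overlaps come from GENCODE vM21, promoters from RefSeq; Python 3.11.15 and matplotlib 3.10.9 were used. A few genes that the naming rule or the lists include are not reported here.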

Additional observations from a re-analysis of the deposited data

Results flagged for a closer look

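Cx3cr1 in WT 3 (3783 normalised reads) lay far below the other 3 WT libraries (4647 to 4802), with a gap of 0.848 of the group's range. It was the only such case in 18 groups of 4 values (9 markers in 2 genotypes), and chance alone flags about 1 group in 20.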

How the results depend on the processing

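Over 22 alternatives, 0 of the 9 markers were called in any, and the median log2 difference of the markers stayed between -0.11 and -0.06. The count of features called over the whole table, 1 with the main settings, was 2 with a pseudocount of 10, 9 in DESeq2, 0 without the trend, 2 with Ttr as a covariate, and 0 to 2 when each library was left out. Olfml3, Trem2, Fcrls, C1qa and Aif1 kept a negative sign in all 22. Csf1r turned positive with Y-linked reads as a covariate (0.0083) and without the libraries of lowest and highest Ttr (0.0886), where Cx3cr1 also turned (0.0558). With libraries left out in turn, the log2 difference of Csf1r ran from -0.097 to 0.046, of Cx3cr1 from -0.155 to 0.022, of Tmem119 from -0.088 to 0.0071 and of P2ry12 from -0.028 to 0.059; for Cx3cr1, Csf1r and Tmem119 the highest value was without Slm2KO 4, and the cause was not tested. With the replicate number as a block the median was -0.0734 and 1 feature was called; same-numbered libraries did not deviate together in every pair (correlations 0.368, 0.615, -0.165 and 0.0309), so the numbers were not taken as pairs. The markers had 635 to 14933 reads per library, and the spread between libraries exceeded counting error for each of the 9.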
